A study of Danio rerio with 6 samples.

Results

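The clustered peaks of ctcf-/- embryos are sites where CTCF ChIPmentation peaks lay close together in the mutant. Their regions were chosen by distance alone. The peaks of both ctcf-/- 48 hpf lists were joined into merged regions at any overlap of 1 bp or more, and a merged region was kept where at least 2 other merged regions lay within 10 kb of it, from edge to edge. Of 3568 merged regions, 319 met this rule, or 8.94%. They were grouped into 40 clusters by gaps under 10 kb. The remaining 3249 merged regions are called the other regions. The files pair no gene with a peak, so clusters are given by position in the danRer10 assembly.

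CTCF is a zinc-finger protein that binds DNA at a defined motif. At many of its sites it halts the loop-extruding cohesin complex, and it is known for marking the boundaries of topologically associating domains and for anchoring chromatin loops. In chromatin immunoprecipitation, DNA bound by the protein is pulled down with an antibody, and in ChIPmentation the Tn5 transposase then inserts the sequencing adapters into the captured chromatin.

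Whole zebrafish embryos formed 3 groups of 2 replicates. WT embryos were taken at 24 and at 48 hours post fertilization (hpf), and ctcf-/- embryos at 48 hpf. The ctcf-/- embryos are zygotic mutants from crosses of heterozygous carriers of 1 CRISPR/Cas9 deletion that causes a premature stop codon. Their mothers carried a functional copy of ctcf, so the embryos start with maternal CTCF. By antibody staining, the paper no longer found nuclear CTCF in ctcf-/- embryos at 24 hpf, though it proposes that some protein possibly still acted then. Its western blot at 48 hpf showed the protein to be lost in them. By ChIPmentation at 48 hpf, it found most sites depleted of CTCF in ctcf-/- embryos and a small set of strong sites persisting. Whether the mutant peaks rest on remaining CTCF was not tested. There was no ctcf-/- library at 24 hpf. Embryos were pooled, and whole embryos mix all cell types, so fewer bound cells and less binding per cell cannot be told apart. Nothing in the sources used here says whether the 2 replicates of a group were separate clutches.

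The WT lists held 67512 and 26350 peaks at 24 hpf and 31014 and 33130 at 48 hpf, against 2717 and 1706 in the ctcf-/- lists. The read totals are not given in the lists. The fold enrichment and p-value of each peak fixed 2 numbers for it, the pileup and the local background. The pileup is the whole number of fragments over the summit. Above its lowest level, the local background is the number of tags of the same library in the surrounding 10 kb. The lowest local background that MACS2 allowed in a library, its genome background, was 44.0 and 12.4 tags per 10 kb in the WT 24 hpf replicates, 19.8 and 17.9 in the WT 48 hpf replicates, 8.50 in ctcf-/- replicate 1 and at most 4.00 in ctcf-/- replicate 2. Local backgrounds are given below as multiples of this level, and for ctcf-/- replicate 2 these multiples are lower bounds.

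The clusters lay on 18 of the 25 chromosomes and on 5 unplaced scaffolds. Unplaced scaffolds are assembled sequences that have no position on a chromosome, and they held 47 clustered regions (14.7%), 3.66% of the other regions and 4.65% of all merged regions. The 40 clusters spanned 662 kb in all, of which the regions themselves covered 99.5 kb. A cluster held a median of 7 clustered regions over a median span of 12669 bp. There were 13 clusters of at least 10 regions, which together held 181 of the 319. At the other end, 2 clusters held 1 clustered region each, because the neighbours that qualified it had too few neighbours of their own. Of 279 gaps within clusters, 48.4% were under 1000 bp, and the median gap was 1133 bp. Clustered regions were 255 bp wide at the median, with quartiles of 197 and 364 bp, and the other regions 177 bp, with quartiles of 158 and 219 bp.

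Most merged regions had no neighbour at all. Within 10 kb, 3023 regions had 0 others, 226 had 1 and 36 had 2, and the highest number was 10. At the threshold of the rule, the second-nearest neighbour of a clustered region was at most 9850 bp away, and that of an excluded region at least 10026 bp. There were 12 regions with this neighbour between 8 and 10 kb and 12 between 10 and 12 kb. In ctcf-/- replicate 1 the local background of the former ran from 1.18 to 85.7 times the genome background with a median of 30.8, and that of the latter from 1.18 to 121 times with a median of 15.9. These values rest on the 11 and 12 regions with a peak there. In ctcf-/- replicate 2 the medians were 46.0 times at 5 regions and 18.9 times at 8. The regions on both sides of the distance threshold thus covered much of the same range, with higher medians inside it. By number of neighbours, the median in ctcf-/- replicate 1 was 3.17 times with 1 other and 45.7 times with 2.

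Both mutant libraries contributed to the clusters. Replicate 1 had 312 peaks in clustered regions (11.5% of its list) and replicate 2 had 184 (10.8%). Peaks of both replicates were present at 169 of the 319 regions, or 53.0%, at 20.8% of the other regions and at 23.7% of all merged regions. Of the remaining clustered regions, 143 had a peak of replicate 1 alone and 7 of replicate 2 alone. These counts describe the selected regions, because a region with peaks from both lists also had peaks of either list to count as neighbours. Clusters drawn from 1 list and read in the other do not have this overlap in their construction. From replicate 1 alone, 307 regions formed 36 clusters, and 35 of these 36 held at least 1 peak of replicate 2 and 28 held at least 3. From replicate 2 alone, 156 regions formed 32 clusters, and 32 of the 32 held a peak of replicate 1 and 25 held at least 3. Clusters of replicate 1 spanned 647 kb and took in 10.4% of the peaks of replicate 2. Clusters of replicate 2 spanned 380 kb and took in 7.32% of the peaks of replicate 1. Spans of the same size elsewhere were not read, so these counts have no comparison beside them. Where both replicates had a peak, their summits were a median of 14 bp apart in clustered regions and 25 bp in the other regions.

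The local background was high at the clustered regions in all 6 libraries. At their peaks it was a median of 29.2 and 26.6 times the genome background in the WT 24 hpf replicates, 39.2 and 26.9 times in the WT 48 hpf replicates, and 112 and 107 times in the ctcf-/- replicates. At the peaks of the other regions the medians were 4.68 and 6.45 times in WT 24 hpf, 6.63 and 7.02 times in WT 48 hpf, and 2.23 and 4.25 times in ctcf-/-. In WT the clustered median was thus 6.24, 4.13, 5.92 and 3.83 times that of the other regions, a mean log2 ratio of 2.3 ± 0.36 (SD, n = 4 libraries). It was above 0 in 4 of 4 libraries (exact sign-flip test, two-sided, p = 0.125, the smallest that 4 libraries can give). The rule used no WT list, but in every library the 10 kb around a clustered region could also hold its neighbours, whose own fragments count in the local background. The ctcf-/- values are a description for the same reason, with the neighbours there chosen by the rule.

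**Figure D1:**
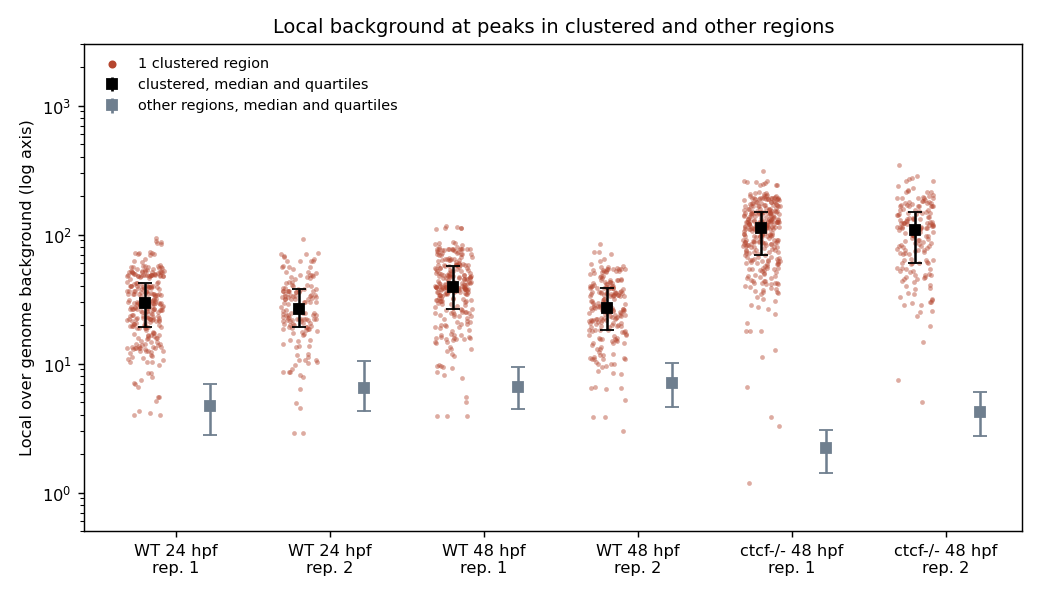
Local background over the genome background of the same library (log axis) at the peaks of clustered regions, with 1 point per region, and their medians and quartiles beside those of the other regions. The clustered medians lie at 26.6 to 39.2 in the 4 WT libraries and at 112 and 107 in the ctcf-/- libraries, while the other regions have medians between 2.23 and 7.02.

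Regions were called high in background where the local value reached 20 times the genome background, which separated the clustered regions from most others. Of the clustered regions with a peak in the library, 303 of 312 (97.1%) reached it in ctcf-/- replicate 1 and 172 of 176 (97.7%) in replicate 2, where 11.8% and 11.4% of all merged regions with a peak did. In WT 24 hpf it was reached by 204 of 282 (72.3%) and 109 of 151 (72.2%), against 9.22% and 14.5% of all merged regions with a peak. In WT 48 hpf it was reached by 217 of 260 (83.5%) and 149 of 211 (70.6%), against 12.1% and 9.57%. Read from the other side, 94.4% of the regions of high background in ctcf-/- replicate 1 were clustered, as were 88.7% of those in replicate 2. The counts of regions at this level in ctcf-/- replicate 2 are minimums, since its multiples are lower bounds. The value of 20 was set after the data had been seen.

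In tags, the library medians at the clustered regions overlapped between the genotypes, and those at the other regions did not. At the clustered peaks the median local background was 775 and 482 tags per 10 kb in the WT 48 hpf replicates and 949 and 430 in the ctcf-/- replicates, so the groups overlapped. At the peaks of the other regions it was 131 and 126 tags in WT 48 hpf and 19 and 17 in ctcf-/-. The pileup showed the same arrangement, with clustered medians of 59 and 43 fragments in WT 48 hpf and 65 and 40 in ctcf-/-, where the other regions had 55 and 53 fragments in WT and 9 and 10 in ctcf-/-. Single other regions did overlap, with pileups of 6 to 163 and 4 to 172 fragments in WT 48 hpf and 4 to 111 and 4 to 90 in ctcf-/-. These numbers are not scaled for depth, which differed between libraries, and the other regions of the mutant include those at which only 1 replicate was called. The medians also rest on different regions, with a peak at 1861 and 1858 other regions in WT 48 hpf and at 2405 and 1519 in ctcf-/-.

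Set against each library's own genome background, the order of the genotypes at the clustered regions differed from that at the other regions. At 797 merged regions with a peak in all 4 lists of 48 hpf, the backgrounds of both ctcf-/- replicates lay above those of both WT replicates at 21.3% of the regions and below them at 59.7%. Among the clustered regions, 137 of 139 (98.6%) were above and 2 were below. Among the other regions, 33 of 658 (5.02%) were above and 474 (72.0%) below. Because the multiples of ctcf-/- replicate 2 are lower bounds, the counts above are minimums and the counts below are maximums, and the ratios with this library in the numerator are minimums. The ratio of ctcf-/- replicate 1 to WT 48 hpf replicate 1 had a median of 2.75 at 254 clustered regions, with quartiles of 2.53 and 2.96, and of 0.379 at the other regions. For ctcf-/- replicate 2 over WT 48 hpf replicate 2 the medians were 4.13 at 148 clustered regions and 0.636 at the other regions. Within a genotype the clustered median was 1.5 between the WT 48 hpf replicates, and at most 1.02 for ctcf-/- replicate 1 over replicate 2. The scale rests on the genome background, which was lower in the ctcf-/- libraries, and its part in this order was not tested. The ctcf-/- peaks chose these regions, so the order is a description with no test.

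The 2 clusters with the most regions show what these sites look like in single libraries. On chromosome 2, chr2:19774129-19837377 held 22 clustered regions, of which 12 had peaks of both ctcf-/- replicates. In its span lay 21 and 8 peaks of the WT 24 hpf replicates, 16 and 15 of the WT 48 hpf replicates and 22 and 12 of the ctcf-/- replicates. The local background there was 21.7 and 17.1 times the genome background in WT 24 hpf, 29.6 and 17.5 times in WT 48 hpf and 84.8 and 76.4 times in ctcf-/-. The strongest region of ctcf-/- replicate 1 by −log10 q, chr2:19787217-19787753, had a pileup of 125 fragments in that library and 60 in the other mutant library, against 113, 46, 86 and 56 in the WT libraries in the order above. Its fold enrichment, the authors' ratio of pileup to local background, was 12.1 and 11.6 in ctcf-/- and 10.001 to 12.8 in WT, so the mutant values fell within the WT range.

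The cluster at chr10:16825925-16881830 held 21 clustered regions, 16 of them with peaks of both mutant replicates. Its span held 23 and 15 peaks in WT 24 hpf, 19 and 18 in WT 48 hpf and 21 and 17 in ctcf-/-. Its local background was 35.9, 36.3, 51.7 and 35.1 times the genome background in the WT libraries and 147 and 155 times in ctcf-/-. It contained the clustered region with a −log10 q of 130 in ctcf-/- replicate 1, chr10:16831113-16831535, with pileups of 208, 83, 155 and 121 fragments in WT and 194 and 100 in ctcf-/-. The fold enrichment there was 9.09, 18.5, 14.3 and 18.5 in WT and 12 and 13.2 in ctcf-/-. A second region, chr10:16842994-16843341, led the list of replicate 2 within the cluster, with 215, 111, 183 and 146 fragments in WT and 215 and 149 in ctcf-/-. In both regions the mutant pileups, as counts of fragments, were inside the range of the WT pileups or, in ctcf-/- replicate 1, equal to its top. The pileups of single regions and clusters, here and below, are not scaled for depth, which differed between libraries. The genome background was 12.4 to 44.0 tags per 10 kb in WT, and 8.50 and at most 4.00 in ctcf-/-. Pileups of similar size are thus not a sign of equal binding in the genotypes.

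**Figure D2:**
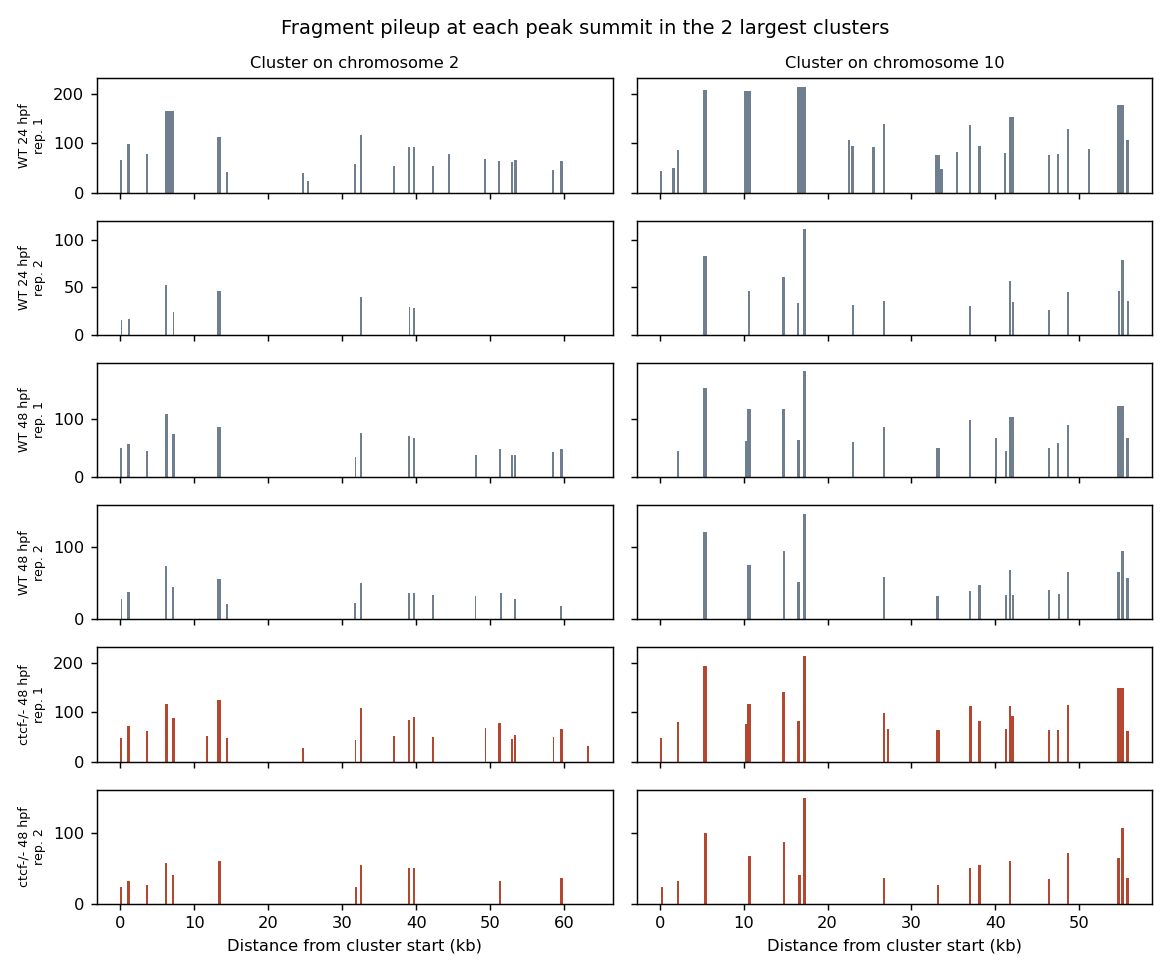
Pileup in fragments at the summit of every listed peak in the clusters on chromosome 2 (22 regions) and chromosome 10 (21 regions), by distance from the cluster start in kb, with 1 row per library and bars as wide as the peak or at least 0.25 kb. The tall peaks recur at the same distances in WT and ctcf-/- lists, and the cluster on chromosome 2 has 8 peaks in WT 24 hpf replicate 2 and 22 in ctcf-/- replicate 1. Pileups are not scaled for depth.

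The other large clusters had the same order of backgrounds. For chr17:45194733-45240848 and chr21:25805361-25833083, with 15 clustered regions each, the local background was 37.4 and 23.1 times and 37.6 and 25.5 times the genome background in WT 48 hpf. In ctcf-/- it was 109 and 119 times at the former and 110 and 114 times at the latter. The cluster at chr7:52730495-52764971 held 14 regions, with 49.8 and 43.3 times in WT 48 hpf and 127 and 179 times in ctcf-/-. The cluster at chr16:26048538-26068665 held 12 regions, with 64.5 and 44.6 times in WT 48 hpf and 163 and 195 times in ctcf-/-. On the unplaced scaffolds chrUn_KN149692v1 (15 regions from 180 to 34674) and chrUn_KN149693v1 (14 regions from 192 to 39254) the values were 27.6 and 19.2 times and 28.8 and 16.8 times in WT 48 hpf. There ctcf-/- had 76.5 and 72.0 times and 76.8 and 76.9 times.

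In 4 clusters both mutant replicates were called at every region. Of these, 3 had 3 regions each, and the other, chr11:233432-233649, was a single region with a low background that is described further on. At chrUn_KN150271v1, between 70 and 2234, the local background was 46.8 and 35.7 times the genome background in WT 48 hpf and 132 and 167 times in ctcf-/-, and the median pileup was 128 and 81 fragments in WT 48 hpf and 156 and 91 in ctcf-/-. At chr15:7288308-7294274 it was 53.1 and 41.1 times in WT 48 hpf and 148 and 191 times in ctcf-/-. At chr5:47141450-47143703 the values were lower, 15.7 and 10.8 times in WT 48 hpf and 63.4 and 59.7 times in ctcf-/-.

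By cluster medians, 36 of the 40 clusters, with 311 regions, had both ctcf-/- backgrounds above both WT 48 hpf backgrounds. In these 36 the cluster medians ran from 3.95 to 81.2 in WT 48 hpf replicate 1 and from 3.85 to 54.3 in replicate 2, and from 17.8 to 201 and from 14.7 to 195 in the ctcf-/- replicates. The lowest of them in these 4 libraries was chr9:20173631-20175018, with 3 regions. A cluster median uses only regions with a peak in the library, so the medians of a cluster can rest on different regions. At chr7:54769054-54791082, with 7 regions, ctcf-/- replicate 1 had a peak at 7 and replicate 2 at 1. In the cluster of 6 regions on chrUn_KN149861v1, WT 48 hpf replicates 1 and 2 and ctcf-/- replicate 2 each had a peak at 1 region. There ctcf-/- replicate 1 had a peak at 5 and WT 24 hpf replicate 1 at 5.

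In the other 4 clusters, with 8 regions, the value of ctcf-/- replicate 1 was below both WT 48 hpf values. The values of ctcf-/- replicate 2 were also smaller where it had a peak, but as lower bounds they do not settle its order. At chr4:205356-206995, with 3 regions, the medians were 37.9 and 43.2 in WT 48 hpf and 12.7 and 30 in ctcf-/-. At chr16:198659-207224, also with 3 regions, they were 19.99 and 22.4 in WT 48 hpf and 3.59 and 7.5 in ctcf-/-. At chr11:233432-233649, a single clustered region, they were 15.4 and 14.0 in WT 48 hpf and 6.58 and 5.0 in ctcf-/-, and the pileup was 110 and 91 fragments in WT 48 hpf and 12 and 8 in ctcf-/-. At chr4:11790585-11790814, also a single region, they were 8.55 and 9.98 in WT 48 hpf and 1.18 in ctcf-/- replicate 1, with no peak of replicate 2. At every peak of ctcf-/- replicate 1 in these 4 clusters the background was below 20 times the genome background.

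**Figure D3:**
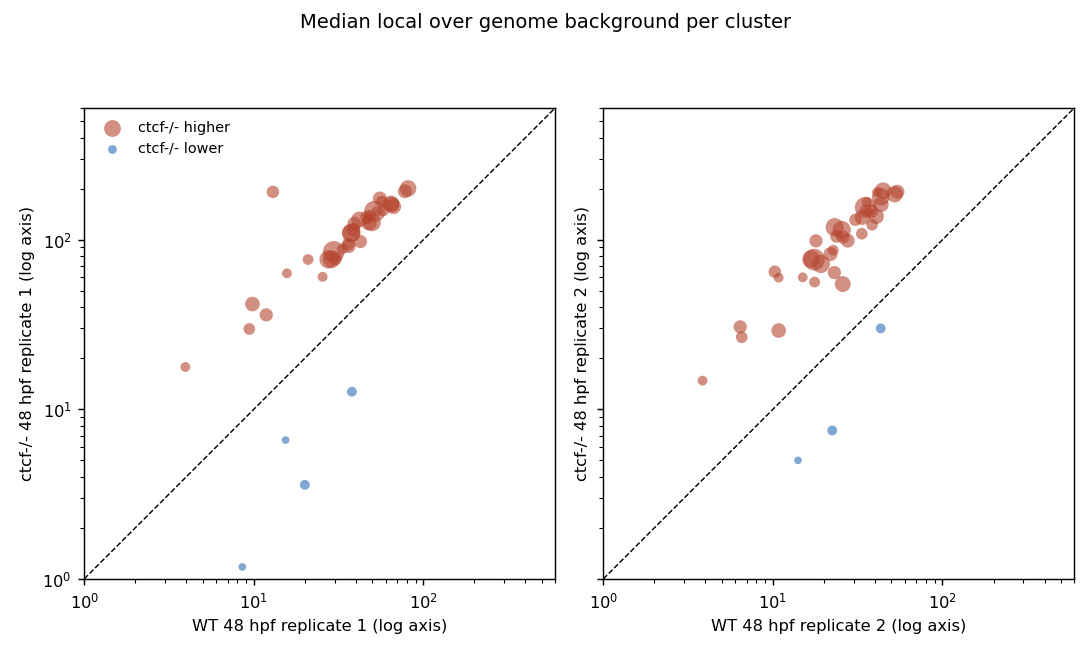
Median local background over genome background of each cluster (both axes log) in ctcf-/- 48 hpf against WT 48 hpf, replicate 1 on the left and replicate 2 on the right, with points sized by number of clustered regions and a dashed line where both are equal. The 36 clusters in red lie above the line and the 4 in blue below it, where the values of ctcf-/- replicate 2 are lower bounds, with 39 clusters drawn on the right because 1 had no peak of ctcf-/- replicate 2.

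The order of the clusters was compared between pairs of libraries. Over cluster medians, Spearman's rho was 0.843 between the ctcf-/- replicates (39 clusters), 0.851 between ctcf-/- and WT 48 hpf replicate 1 (40 clusters), 0.955 between the WT 48 hpf replicates (40 clusters) and 0.902 between ctcf-/- replicate 1 and WT 24 hpf replicate 1 (40 clusters). It was lower between ctcf-/- replicate 1 and WT 48 hpf replicate 2, at 0.746, and between ctcf-/- replicate 1 and WT 24 hpf replicate 2, at 0.529 (40 clusters each). Over the 36 clusters with both ctcf-/- backgrounds above WT 48 hpf, these 2 values were 0.838 and 0.758. For ctcf-/- replicate 2, rho was 0.880 with WT 48 hpf replicate 1 and 0.829 with WT 48 hpf replicate 2 (39 clusters each). The points share the lists that defined the clusters and the base composition of each site, so these values are a description. The medians of a cluster could also rest on different regions in the libraries compared.

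Most clustered regions also held a peak in WT. A wide WT peak that overlapped several regions was counted at each of them, and its values entered the medians each time. At chrUn_KN150271v1, 1 peak of WT 24 hpf replicate 1 was counted at 3 regions. A peak was present at 282 of the 319 regions (88.4%) in WT 24 hpf replicate 1 and at 151 (47.3%) in replicate 2, and at 260 (81.5%) in WT 48 hpf replicate 1 and at 211 (66.1%) in replicate 2. Of all merged regions, 69.6%, 53.5%, 59.4% and 58% held one in the same order. Against the other regions the differences were 20.6, −6.80, 24.2 and 8.96 percentage points, a mean of 11.7 ± 14.0 (SD, n = 4 libraries), above 0 in 3 of 4 libraries (exact sign-flip test, two-sided, p = 0.25). The spread between libraries was as large as the mean. Without WT 24 hpf replicate 2 the mean was 17.9, and without WT 48 hpf replicate 1 it was 7.58. It was 0.937 for clusters drawn without ctcf-/- replicate 1 and 17.7 without ctcf-/- replicate 2. The direction turned for stricter mutant peaks, with a mean of −12.5 at a −log10 q of at least 10 and −10.1 for regions of both replicates only. With a WT peak counted only where its summit lay in the region, the mean was 13.6.

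The difference was also opposite among the WT peaks ranked highest by −log10 q. With each WT list shortened to its 3568 best peaks by −log10 q, the number of merged regions, 24, 33, 27 and 14 clustered regions held a peak. These are 7.52, 10.3, 8.46 and 4.39% of the clustered regions, where 27.9, 33.4, 36.0 and 35.4% of the other regions held one. The mean difference was then −25.5 percentage points (exact sign-flip test, two-sided, p = 0.125). By −log10 q the WT peaks at clustered regions had median percentiles of 56.4 to 74.8, and those at the other regions 90.9 to 93.1. Shortening by this measure thus removes more of the former, and the difference is not a result separate from their lower rank.

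**Figure D4:**
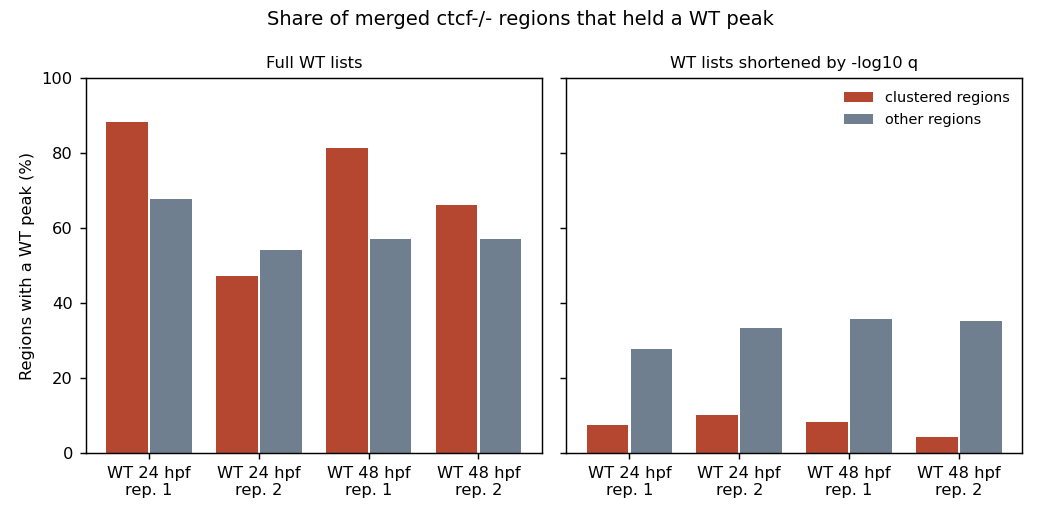
Share of clustered and of other merged regions, in percent, that held a peak in each WT list, for the full lists (left) and for the lists shortened to their 3568 best peaks by −log10 q (right), as bars from 0. Clustered regions reach 88.4% in the full list of WT 24 hpf replicate 1, and at most 10.3% in the shortened lists.

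Peaks in all 4 WT lists were present at 141 clustered regions (44.2%) and at 52.7% of the other regions. Another 65, 57 and 31 clustered regions held peaks in 3, 2 and 1 of them. These were 20.4, 17.9 and 9.72% of the clustered regions, against 3.23, 2.71 and 10.6% of the other regions. The remaining 25 (7.84%) held no WT peak, against 30.7% of the other regions and 28.7% of all merged regions. Of these 25, 24 had a peak of ctcf-/- replicate 1 and 2 had a peak of replicate 2, so 1 had both. They lay in 16 clusters, between 50 and 3210 bp from the nearest WT peak with a median of 647 bp. In ctcf-/- replicate 1 their median pileup was 40.5 fragments, and that of the clustered regions with a peak in all 4 WT lists was 89. Their median background was 66.7 times the genome background, and that of the latter 119 times.

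The clusters with the highest share of such regions were chrUn_KN150127v1 from 1222 to 29502, with 4 of 9 regions, chr8:44391849-44406518, with 3 of 7, and chr8:34869247-34879148, with 2 of 6. The cluster at chr16:198659-207224, with 1 of 3, had the same share as the last of these and fewer regions. The scaffold cluster had low backgrounds, 9.82 and 10.8 times the genome background in WT 48 hpf and 41.7 and 29.1 times in ctcf-/-. It also held the region that led replicate 2 among these 3 clusters, at 17910 to 18175, with a −log10 q of 101 in that list. Its fold enrichment was 13.2, 28.1, 22.4 and 22.9 in WT and 11.4 and 23.6 in ctcf-/-, above the median of the clustered peaks in every library. The regions strongest in both mutant lists within the clusters on chromosome 8 were chr8:44394665-44394901 and chr8:34875446-34875704, with fold enrichments of 6.06 and 7.91 and of 5.62 and 6.91 in ctcf-/-. In WT these 2 regions had fold enrichments of 5.22 to 8.18 and 4.96 to 6.75.

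Among the WT peaks, those at clustered regions had many fragments and a low fold enrichment. Their fold enrichment had medians of 4.40 and 6.30 in WT 24 hpf and 4.91 and 5.69 in WT 48 hpf, against 15.9, 15.5, 19.1 and 18.8 at the other regions. In percentiles of the library's own list these were 1.5, 13.3, 1.19 and 8.76 for clustered and 88.5, 89.5, 90.1 and 90.7 for the other regions. The mean difference of the medians was −83.5 ± 5.73 points (SD, n = 4 libraries), below 0 in 4 of 4 libraries (exact sign-flip test, two-sided, p = 0.125, the smallest that 4 libraries can give). By pileup, the clustered peaks stood at percentiles of 96.1, 91.1, 93.9 and 88.5 and those of the other regions at 92.6, 89.9, 92.5 and 93.1, with a mean difference of 0.379 points (p = 0.75 by the same exact test). By −log10 q they stood in between, at 74.8, 64.4, 60.4 and 56.4 against 92.7, 90.9, 92.5 and 93.1, with a mean difference of −28.3 points (p = 0.125 by the same exact test). The size of the difference thus depended on the measure. Fold enrichment has the local background in its denominator, and this background was higher at the clustered regions in every WT library. The lower rank by fold enrichment is therefore not a result separate from the higher background.

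In the ctcf-/- lists the rank by pileup was high too. The clustered peaks had median percentiles of 93.9 and 93.1 by pileup and 6.64 and 12.2 by fold enrichment, and the other regions 49.7 and 43.8 by pileup and 54.1 and 53.8 by fold enrichment.

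**Figure D5:**
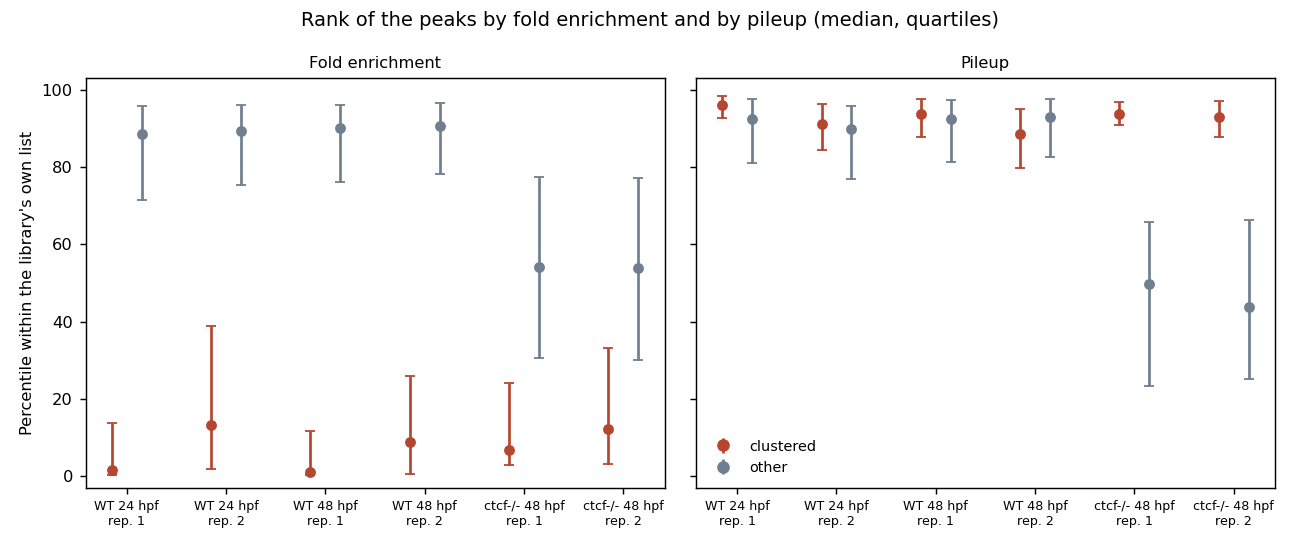
Percentile of the peaks within their own library's list, by fold enrichment (left) and by pileup (right), as medians with quartiles for clustered and other regions in the 6 libraries. By fold enrichment the clustered medians lie between 1.19 and 13.3 in every list, and by pileup between 88.5 and 96.1.

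Summits were close between genotypes in both kinds of region. Distances were read only where peaks of both lists overlapped the same region, and the median widths were 255 bp for clustered and 177 bp for other regions. This condition by itself keeps the distances small. The summits of ctcf-/- replicate 1 and WT 48 hpf replicate 1 were a median of 18.5 bp apart at clustered regions and 27 bp at other regions, and 78.7 and 73.1% of them lay within 50 bp. For ctcf-/- replicate 2 the order of the shares was the opposite, with 77.0% at clustered and 81.0% at other regions against WT 48 hpf replicate 1, and 73.6 and 79.2% against WT 48 hpf replicate 2. Between the WT 48 hpf replicates the medians were 12 and 13 bp, with 79.2% within 50 bp at clustered regions and 90.0% at the other regions.

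Some clustered regions were among the sites called in all 4 lists of 48 hpf. Of 23959 WT 48 hpf sites with peaks of both replicates, 798 were overlapped by a merged region with peaks of both ctcf-/- replicates. For 140 of these 798 sites (17.5%) the region was clustered. Among all 844 merged regions with peaks of both ctcf-/- replicates, 169 were clustered, which is a slightly larger share. The clustered share at these WT sites was thus no higher than among such regions as a whole. Those 140 sites had median fold-enrichment percentiles of 5.34 and 13.5 in the WT 48 hpf lists. The other sites among the 798 had percentiles of 94.1 and 94.9. The rank by fold enrichment falls where the local background is high. By pileup, the WT 48 hpf peaks at all clustered regions stood at median percentiles of 93.9 and 88.5, and those at the other regions at 92.5 and 93.1. These sets are larger than the 798 sites, whose own rank by pileup was not computed.

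The clusters took up a far smaller share of the WT lists than of the mutant lists, whose peaks had set the spans. Peaks within their spans numbered 319 and 166 in WT 24 hpf and 291 and 227 in WT 48 hpf, which were 0.473, 0.630, 0.938 and 0.685% of the lists. All 40 clusters held at least 1 peak of each WT list and of ctcf-/- replicate 1, and 39 held a peak of ctcf-/- replicate 2. The numbers of peaks in the spans overlapped between the genotypes, while the WT lists as a whole were many times longer. Both the rule and the list lengths enter the contrast in shares, and their part in it was not tested. It is a description with no test.

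Clustering within 1 list depends on its length, so the rule was also applied to each list alone. On full lists 32.9, 9.95, 12.3 and 12.1% of the WT regions were clustered, and 11.3 and 9.14% of the ctcf-/- regions. With every list shortened to its 1706 best peaks by −log10 q, the length of the shortest, 6, 6, 5 and 1 peaks were clustered in WT, or at most 0.352%, and 284 (16.6%) and 156 (9.14%) in ctcf-/-. Shortened by fold enrichment instead, an alternative chosen after the data had been seen, no WT peak was clustered and 17 (0.996%) were in ctcf-/- replicate 1. The list of replicate 2 sets the length and is the same in each case. Of the WT peaks in the cluster spans, 5, 15, 12 and 5 were left in the lists shortened by −log10 q. The measure used for shortening thus decides in part which peaks can be clustered. As the ctcf-/- lists also chose the clusters, these shares are a description with no test.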

How the data were processed

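CTCF ChIPmentation libraries of 6 pools of whole zebrafish embryos were used, 2 in each of 3 groups assigned from the sample labels. As deposited, the authors had aligned reads with Bowtie2 to the GRCz10 (danRer10) assembly, removed distant read pairs and called peaks with MACS2 in each library at an FDR of 0.001, without pooling replicates. An input control is not given in the sources used here. The lists hold the authors' fold enrichment, a ratio on a linear scale, the deposited −log10 values of p and of q at the summit, and a score column that the authors deposited and that was not used here. Positions are those of the deposited lists, written from 1.

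The pileup n and the local background λ of each peak were solved from fold = (n + 1)/(λ + 1) and p = P(X > n | λ) of a Poisson distribution, taking whole n, and 100% of the peaks in every list were solved to within 0.002 of the −log10 p. For every peak above the genome background, the local background was a whole number of tags in 10 kb. It includes the fragments of the peak itself. Peaks were merged at an overlap of 1 bp, and a merge with bedtools 2.31.1 gave the same number of regions. Where a region held several peaks of a list, the one with the highest fold enrichment was read. A peak that overlapped several regions was read at each of them. Clustered and other regions were compared within each WT library, and the differences tested over the 4 libraries with an exact sign-flip test. Regions are not replicates, so no p-value is given over regions. Where no source says that replicates came from separate clutches, p-values measure only the spread between libraries. Members, lists and clusters were chosen with earlier results of these data known. Named clusters were the 8 with the most clustered regions (ties by number of ctcf-/- peaks and then by summed width), the 3 with the highest share of regions without a WT peak, the 3 with the highest share of regions of both ctcf-/- replicates (the last 2 kinds with at least 3 regions, ties by number of regions), and any that overlapped the HoxD region modeled in the study, of which there were 0. Single regions were the strongest by −log10 q in a ctcf-/- list. Clusters outside this rule were named after their values had been seen. The reference tables at hand are of another assembly and were not used here, so no gene or sequence is given. Alternatives changed the distance, the number of neighbours, the peak threshold, the merging, the WT lists and the libraries. Steps were tested on simulated data. Python 3.11.15, numpy 2.4.6, pandas 2.3.3, scipy 1.17.1 and matplotlib 3.10.9 were used.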

Additional observations from a re-analysis of the deposited data

How the results depend on the processing

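The log2 ratio of WT backgrounds kept its direction in 16 of 16 alternatives, and the percentile of fold enrichment in 16 of 17, the exception being the percentile of pileup, at 0.379 points. The difference in the share with a WT peak kept its direction in 16 of 19 and was −12.5 percentage points at a −log10 q of at least 10 in the ctcf-/- lists, −10.1 for regions of both ctcf-/- replicates only and −25.5 with shortened WT lists. The cause of these turns was not tested. Leaving out 1 library at a time gave 0.937 to 17.9 percentage points for this share, −86.0 to −81.7 points for the percentile and 2.18 to 2.42 for the log2 ratio.

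Without ctcf-/- replicate 1 there were 156 clustered regions and 32 clusters, and without ctcf-/- replicate 2 there were 307 and 36. Requiring 1 neighbour gave 545 regions in 150 clusters, with 43.1% of regions of both replicates. A distance of 30 kb gave 68 clusters, merging by summits 45.2% of regions of both replicates, and regions of both replicates only gave 136 clustered regions. Among alternatives chosen after seeing the data, a background of 10 times was reached by 98.7% of clustered regions in ctcf-/- replicate 1, and one of 50 times by 85.6 and 81.8% in replicates 1 and 2. Lists shortened by fold enrichment had 0, 0, 0 and 0% of peaks clustered in WT, against 0.352, 0.352, 0.293 and 0.0586% by −log10 q, and 0.996% in ctcf-/- replicate 1.

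No paired analysis was possible because replicate numbers pair no libraries in these comparisons. The tested differences are between 2 kinds of region in the same library, and the other results come from no test. With 4 libraries the sign-flip test cannot go below 0.125. The genome background was 8.50 and at most 4.00 tags per 10 kb in ctcf-/-, and its part in which mutant peaks were called was not tested.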
